A study of Mus musculus with 4 samples.

Results

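The cohesin sites of mouse chromosome 11 were described from the Rad21 peaks of neural stem cells (NSCs) and astrocytes (ASTs). All peaks that the 2 deposited lists place on chromosome 11 were taken, which gave 1193 of 18405 NSC peaks and 1181 of 16157 AST peaks. The chromosome was chosen by values measured in these same lists, its number of peaks per Mb and its low share of NSC-only sites, so both are given as descriptions and not as findings. NSCs were clonal, dividing cells derived from mouse embryonic stem cells and kept with EGF and FGF. ASTs were their post-mitotic progeny, kept with BMP and FGF on laminin. The 4 libraries were a Rad21 immunoprecipitate and a matching input of total chromatin from each of the cell types. No agent beyond the culture factors and no deletion is named in the labels for these libraries, the mouse strain is not given there, and peak positions hold no markers by which the labelled cell types could be checked.

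Cohesin is a ring-shaped protein complex that encircles DNA, and Rad21 is the subunit that closes the ring. It holds sister chromatids together in dividing cells, and in interphase it gathers at sites bound by the zinc-finger protein CTCF, where it anchors chromatin loops and the borders of topological domains. A Rad21 peak, far narrower than a gene, marks such a point of accumulation. CTCF itself was not analysed here.

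There were no replicates, so differences between NSCs and ASTs stand without a replicate error, and no p-value was computed. The intervals given are 95% intervals that cover counting error only. The strength of a peak is the fold enrichment reported by the authors' peak caller, the pile-up of fragments at the summit over the local background, and it was read within a list. The number of reads behind each list was not stated in the texts read. The usual background recovered from the peak values was 3.22 fragments in NSCs and 2.63 in ASTs, and the median peak of chromosome 11 stood on 1.00 times the usual background in both lists. The median number of fragments at a summit was 36 in NSCs and 24 in ASTs. Background is given here in fragments times a scale factor of the list, 0.9437 in NSCs and 1.0 in ASTs. Fragments at a summit are given unscaled, and fold enrichment is their scaled number over the background. Background over 1.1 times the usual was found under 23.2% of NSC peaks of chromosome 11, against 27.0% on the other chromosomes. For AST peaks it was found under 27.2%, against 34.2% on the others. The AST share was the lowest of the 20 chromosomes, but chromosome 4 was close to it at 27.4%. The pooled AST value includes chromosome 1 at 71.6%. Without chromosomes 1 and X the others stood at 24.5% in NSCs and 30.3% in ASTs.

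Peaks that start at 3.0 to 3.1 Mb, next to the centromeric end, were kept apart. There the recovered background was far above its usual level, with a median of 27.3 fragments (range 24.96 to 64.8) under NSC peaks and 44.9 (5.56 to 60.9) under AST peaks, or 8.49 and 17.1 times the usual. The segment held 7 NSC peaks, between 3026994 and 3045008 in mm9 coordinates, and 17 AST peaks, between 3023784 and 3098326. Their fold enrichment was low although 55 to 112 fragments (NSC) and 18 to 115 (AST) piled up at the summits. It ran from 1.63 to 3.1 in NSCs and from 1.65 to 4.36 in ASTs. Overlap with the other list was found for 4 of the 7 NSC peaks and 3 of the 17 AST peaks. The first site beyond the segment was called in both cell types, at 3247209 to 3247375 in NSCs (fold enrichment 7.33) and 3247192 to 3247351 in ASTs (7.22), and its background was back at 3.22 and 2.63 fragments. All values that follow are for the 1186 NSC and 1164 AST peaks outside the segment.

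Chromosome 11 had 9.75 NSC peaks and 9.57 AST peaks per Mb of the length up to its last peak. Chromosome 19, the next in order in both lists and so just outside the choice, had 9.39 and 9.08. The median of the other chromosomes was 6.81 in NSCs and 6.10 in ASTs, and the X chromosome was lowest in both at 2.88 and 2.70. Chromosome 11 had 98.1 AST peaks per 100 NSC peaks, where the other chromosomes ranged from 79.1 on chromosome 3 to 96.7 on chromosome 19. This ratio was set almost wholly by the numbers of NSC-only and AST-only peaks. A low NSC-only share was used to choose the chromosome, so the ratio is a description and nothing is read from it. Chromosome 11 is also gene-rich, with 1609 protein-coding genes in the RefSeq annotation of GRCm38.p6, the third highest number of the 20. Set against genes instead of length, its sites were not among the densest. There were 73.7 NSC peaks per 100 protein-coding genes, 17th of 20, with a median of 87.1 on the other chromosomes. The AST value of 72.3 was 13th of 20, with a median of 77.6.

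Most sites of chromosome 11 were found in both cell types. Of the NSC peaks, 880 of 1186 shared 1 bp or more with an AST peak, or 74.2% (95% interval 71.6 to 76.7%), where 65.5% did over the whole NSC list and 64.9% (64.2 to 65.6%) on the other chromosomes. Of the AST peaks, 882 of 1164 overlapped an NSC peak, or 75.8% (73.2 to 78.2%), where 74.7% did over the whole AST list and likewise on the other chromosomes (74.0 to 75.4%). The NSC share was second of the 20 chromosomes after chromosome 19 at 75.2%. It is what remains after the NSC-only peaks, whose low share was used to choose the chromosome, so its height is a description and nothing is read from it. The AST share was near the background, 9th of 20. Without chromosomes 1 and X the other chromosomes stood at 66.1% of NSC peaks and 75.5% of AST peaks. Of the 588 peaks found in a single list, 306 were NSC-only and 282 AST-only. NSC-only peaks made up 52.0% (47.9 to 56.1%) of them, against 60.9% over both whole lists and 61.5% (60.5 to 62.4%) on the other chromosomes, and this low share is one of the values that chose the chromosome.

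Along the chromosome the sites were unevenly spread, and the steps of 5 Mb that were dense in NSCs were dense in ASTs. Density, counted over the measured part of each step, ran in NSCs from 2.0 peaks per Mb at 35 to 40 Mb to 20.6 at 95 to 100 Mb, with a median over the 25 steps of 10.4. In ASTs it ran from 1.6 at 35 to 40 Mb to 19.0 at 100 to 105 Mb, with a median of 8.8. Across the 25 steps the densities of the 2 lists had a Pearson correlation of 0.974 and a Spearman correlation of 0.967. This describes 25 neighbouring stretches of 1 chromosome that share genes and base composition, measured in 1 library per cell type. Most sites, 880 of the NSC and 882 of the AST peaks, were shared and so counted in both densities. A close correlation was thus largely built in. Counts of NSC-only and AST-only peaks per step, described below, had a lower Spearman correlation of 0.656.

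The profile began with a dense step. Between 3.1 and 5 Mb, a length of only 1.9 Mb, there were 35 NSC peaks (18.4 per Mb) and 32 AST peaks (16.8 per Mb), and this was among the 3 densest steps in NSCs. Density then fell to 8.0 and 8.8 per Mb at 5 to 10 Mb and to 3.0 and 3.4 per Mb at 10 to 15 Mb, where only 15 NSC and 17 AST peaks were called. From 15 to 50 Mb the profile stayed low. The steps at 25 to 30 Mb (3.2 NSC and 2.4 AST peaks per Mb) and 35 to 40 Mb (2.0 and 1.6 per Mb, from 10 and 8 peaks) were, with the step at 10 to 15 Mb, the 3 sparsest in both lists. The step between them, 30 to 35 Mb, held 40 NSC and 43 AST peaks, at 8.0 and 8.6 per Mb.

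Beyond 50 Mb every step but 1 had at least 8.4 NSC peaks per Mb. The exception was the step at 80 to 85 Mb, with 7.8 NSC and 8.4 AST peaks per Mb. A first rise was centred on 75 to 80 Mb, with 85 NSC peaks (17.0 per Mb) and 79 AST peaks (15.8 per Mb). The densest stretch was 95 to 105 Mb. At 95 to 100 Mb there were 103 NSC peaks (20.6 per Mb) and 92 AST peaks (18.4 per Mb). At 100 to 105 Mb there were 87 NSC peaks (17.4 per Mb) and 95 AST peaks (19.0 per Mb). After a dip to 8.4 and 7.6 per Mb at 110 to 115 Mb, density rose again at 115 to 120 Mb to 20.4 (102 NSC peaks) and 18.8 (94 AST peaks). The last 1.67 Mb held 18 NSC and 17 AST peaks.

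**Figure D1:**
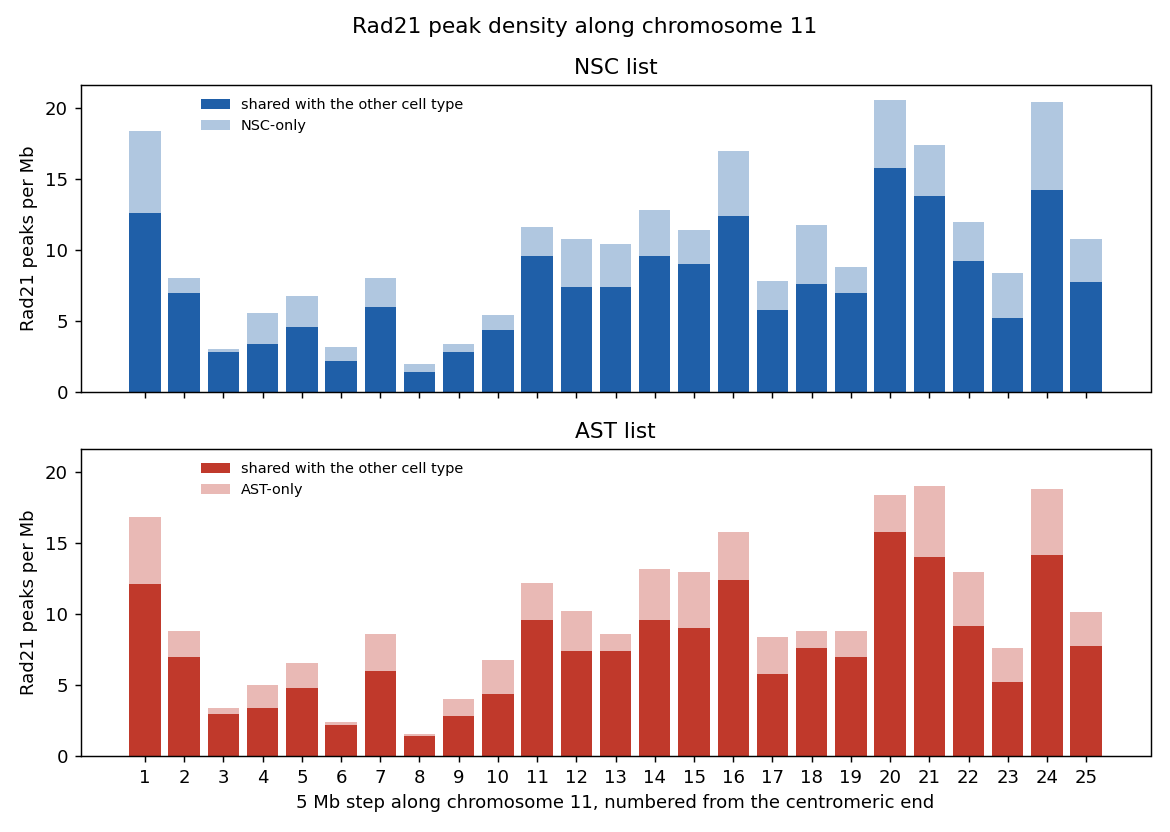
Rad21 peaks per Mb (vertical axis) in each 5 Mb step along chromosome 11, numbered from the centromeric end with 0 to 5 Mb as step 1 (horizontal axis), for the NSC list (upper panel) and the AST list (lower panel); full colour marks peaks shared with the other cell type and pale colour marks peaks found in that list alone. Both lists have the same low stretch up to 50 Mb after the first step, and the same high steps at 75 to 80, 95 to 105 and 115 to 120 Mb.

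Divided at 50 Mb, a place picked after the profile had been seen, the 46.9 Mb before it held 262 NSC peaks (5.59 per Mb) and 268 AST peaks (5.71 per Mb). The 71.67 Mb from it on held 924 NSC peaks (12.9 per Mb) and 896 AST peaks (12.5 per Mb), so density was 2.31 times higher in NSCs and 2.19 times higher in ASTs. The peaks themselves differed little between these stretches. The shared share of NSC peaks was 75.2% (69.5 to 80.3%) before 50 Mb and 73.9% (71.0 to 76.7%) after it. For AST peaks it was 73.9% (68.2 to 79.0%) and 76.3% (73.4 to 79.1%). Median fold enrichment was 9.09 and 9.39 in NSCs, and 8.26 and 8.36 in ASTs.

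Sharing varied less along the chromosome than density did. Among the 20 steps with at least 20 NSC peaks, the share of NSC peaks also found in ASTs ran from 60.7% to 87.5%. It was highest at 5 to 10 Mb, where 35 of 40 peaks were shared (87.5%, 73.2 to 95.8%), followed by 50 to 55 Mb with 48 of 58 (82.8%, 70.6 to 91.4%) and 45 to 50 Mb with 22 of 27 (81.5%, 61.9 to 93.7%). It was lowest at 15 to 20 Mb with 17 of 28 (60.7%, 40.6 to 78.5%), then at 110 to 115 Mb with 26 of 42 (61.9%, 45.6 to 76.4%) and at 85 to 90 Mb with 38 of 59 (64.4%, 50.9 to 76.4%). In 0 of the 25 steps did the interval leave out the chromosome's own share of 74.2%, so at this number of peaks no step could be told from the chromosome as a whole in NSCs.

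In ASTs the share ran from 64.7% to 86.4% over the 21 steps with at least 20 AST peaks. The most shared steps were 85 to 90 Mb with 38 of 44 (86.4%, 72.6 to 94.8%), 60 to 65 Mb with 37 of 43 (86.0%, 72.1 to 94.7%) and 95 to 100 Mb with 79 of 92 (85.9%, 77.0 to 92.3%). The least shared were 45 to 50 Mb with 22 of 34 (64.7%, 46.5 to 80.3%), 15 to 20 Mb with 17 of 25 (68.0%, 46.5 to 85.1%) and 110 to 115 Mb with 26 of 38 (68.4%, 51.3 to 82.5%). The interval left out the chromosome's AST share of 75.8% in 1 of the 25 steps, the dense step at 95 to 100 Mb. The steps at 15 to 20 and 110 to 115 Mb were among the 3 least shared in both lists. Over all 25 steps density and shared share had a Pearson correlation of −0.124 and a Spearman correlation of −0.058 in NSCs, and of −0.182 and −0.043 in ASTs. Over the 20 steps that had at least 20 peaks in both lists, they were 0.023 and 0.054 in NSCs and 0.246 and 0.395 in ASTs. The sign in ASTs thus depended on the sparse steps, and no relation is read from these values.

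**Figure D2:**
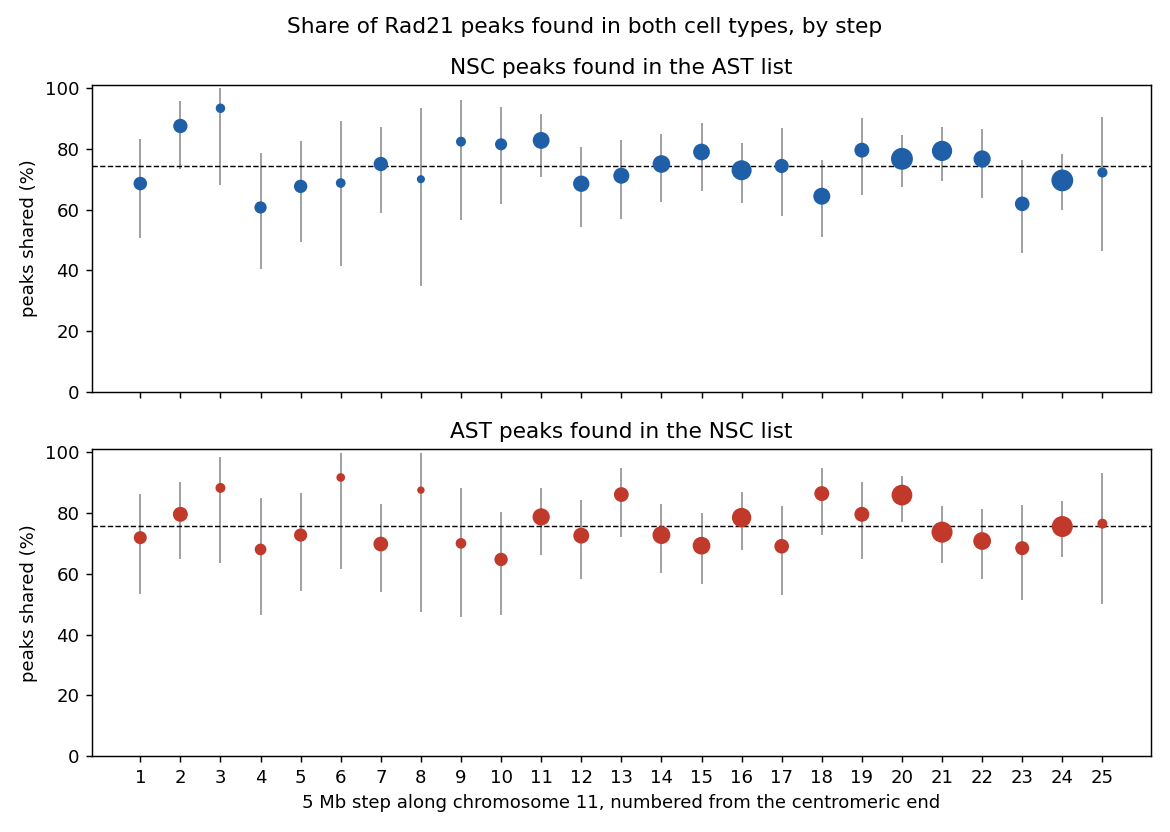
Percentage of peaks found in the other list (vertical axis) in each 5 Mb step numbered from the centromeric end (horizontal axis), for NSC peaks (upper panel) and AST peaks (lower panel); dot area grows with the number of peaks, grey lines are exact binomial 95% intervals and the dashed line is the share over the chromosome. Nearly all intervals cross the dashed lines at 74.2% and 75.8%; the exception is the AST step at 95 to 100 Mb, step 20.

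The numbers of NSC-only and AST-only peaks per step had a Spearman correlation of 0.656 over 25 steps and 0.391 over the 20 steps with at least 20 peaks. NSC-only peaks were more numerous in 13 of the 25 steps, AST-only peaks in 11, and the numbers were equal in 1. The step at 85 to 90 Mb leaned furthest towards NSCs, with 21 NSC-only and 6 AST-only peaks, and it was at once among the least shared steps of the NSC list and the most shared of the AST list. The step at 60 to 65 Mb had 15 NSC-only and 6 AST-only peaks, and that at 95 to 100 Mb had 24 and 13. The opposite lean was seen at 70 to 75 Mb, with 12 NSC-only and 20 AST-only peaks, and at 45 to 50 Mb, with 5 and 12. These steps were singled out after their values had been seen, and with 1 library per cell type their difference has no replicate check.

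At the median, peaks of chromosome 11 were slightly wider and stronger than those of the other chromosomes pooled. NSC-only peaks were narrower and weaker than shared ones. The NSC difference is therefore not separate from the low NSC-only share that chose the chromosome. The median width of NSC peaks was 239 bp (95% interval 231 to 246, quartiles 181 and 316), against 231 bp (230 to 233) elsewhere. The median width of AST peaks was 209.5 bp (204 to 213, quartiles 164 and 254), against 203 bp (202 to 205). Median fold enrichment was 9.39 (9.09 to 9.97) in NSCs against 8.51 (8.51 to 8.80), and 8.36 (7.98 to 8.75) in ASTs against 7.92 (7.80 to 7.98). Without chromosomes 1 and X the others stood at 232 bp and 8.80 in NSCs, and at 203 bp and 7.98 in ASTs. The AST fold enrichment of 7.98 is the lower limit of the interval of chromosome 11. No difference between the 2 cell types was read from fold enrichment, which depends on each library. Among chromosomes the NSC value was second after chromosome 19 at 9.44, and the AST value was level with that of chromosome 19. At −log10 q of at least 10 the AST difference was small, with medians of 233.5 against 232 bp and 10.71 against 10.65.

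Shared peaks were wider and stronger than the rest in both lists. In NSCs shared peaks of chromosome 11 had a median width of 266.5 bp, a fold enrichment of 11.44 and 44 fragments at the summit. NSC-only peaks had 173.5 bp, 6.29 and 23 fragments. In ASTs shared peaks had 216 bp, 9.13 and 26 fragments. AST-only peaks had 175 bp, 6.84 and 19 fragments. Peaks found in a single list thus stood on fewer fragments at the median, and how many of them were bound but not called in the other library was not tested.

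Step by step, median width ran from 207.5 to 284 bp in NSCs and from 176.5 to 237 bp in ASTs, and the NSC median was the wider in 25 of 25 steps. Median fold enrichment ran from 5.14 to 11.5 in NSCs. The lowest value came from the 10 peaks at 35 to 40 Mb and the highest from the 40 peaks at 30 to 35 Mb, so the sparsest step and its neighbour stood at opposite ends. In ASTs it ran from 6.84 at 15 to 20 Mb to 10.3 at 20 to 25 Mb. Steps of strong peaks were also steps of wide peaks, with a Spearman correlation of median fold enrichment with median width of 0.640 in NSCs and 0.766 in ASTs. The median summit held 36 fragments in NSCs and 24 in ASTs. Whether the wider NSC peaks come from a difference between the libraries was not tested. The step medians of fold enrichment in the 2 lists were less closely related (Pearson 0.451, Spearman 0.516, 25 steps), and so were those of width (0.536 and 0.559). For NSCs this order did not hold over the 20 steps with at least 20 peaks in both lists. There the Spearman correlation between lists was 0.661 for fold enrichment and 0.538 for width. That of fold enrichment with width was 0.531 in NSCs and 0.686 in ASTs.

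**Figure D3:**
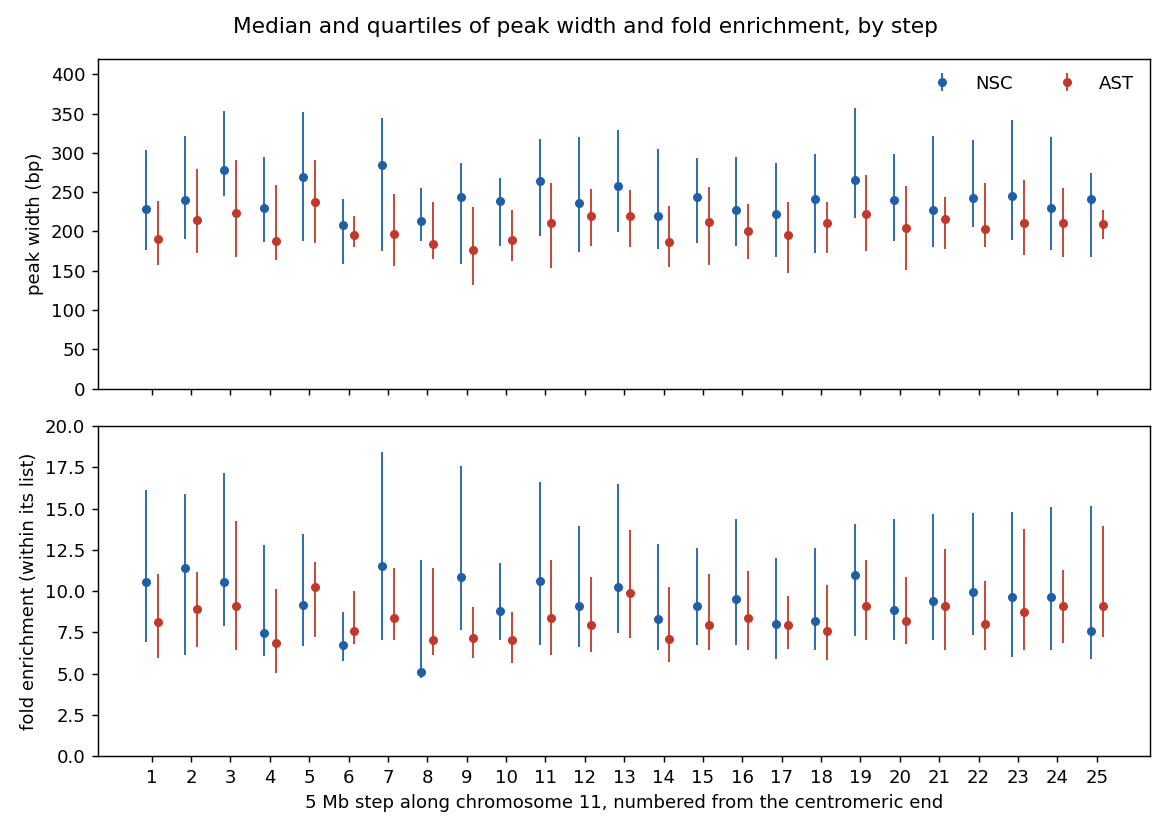
Median peak width in bp (upper panel) and median fold enrichment within its list (lower panel) for each 5 Mb step numbered from the centromeric end (horizontal axis), NSC in blue and AST in red, with lines from the lower to the upper quartile. The NSC median width is above the AST one in 25 of 25 steps, while the quartile ranges of fold enrichment overlap throughout. Whether the width difference comes from the libraries was not tested.

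Sharing was then described by strength. Each whole list was divided at its quartiles of fold enrichment (6.13, 8.66 and 13.2 in NSCs, 6.08, 7.98 and 10.9 in ASTs), and the peaks of chromosome 11 were counted in the 4 bins. The strongest bin held 29.9% (27.3 to 32.6%) of its NSC peaks against 24.6% (23.9 to 25.2%) on the other chromosomes, and the weakest 19.1% against 25.7%. In ASTs the strongest bin held 27.9% (25.4 to 30.6%) against 24.8% (24.1 to 25.5%), and the weakest 22.3% against 26.6%. Chromosome 11 thus held more strong and fewer weak peaks for its number than the other chromosomes pooled. NSC-only peaks were mostly weak, so in NSCs this goes with the low NSC-only share that chose the chromosome and is no separate finding. Without chromosomes 1 and X the strongest bin held 25.1% (24.4 to 25.8%) of the other NSC peaks and 25.3% (24.5 to 26.0%) of the other AST peaks. The AST interval then overlapped that of chromosome 11, and the NSC interval did not.

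Sharing rose steeply with strength. In NSCs the shared share from the weakest to the strongest bin was 39.6% (33.2 to 46.3%), 60.7% (54.9 to 66.3%), 84.3% (79.7 to 88.2%) and 98.9% (97.1 to 99.7%). In the strongest bin only 4 of 355 peaks were NSC-only. On the other chromosomes the same bins were at 31.1% (29.8 to 32.5%), 53.3% (51.8 to 54.8%), 79.9% (78.7 to 81.1%) and 96.5% (95.95 to 97.1%), so the NSC share on chromosome 11 was the higher in each bin, with intervals that overlapped in the third bin and came close to touching in the others. Without chromosomes 1 and X the others were at 32.6% (31.1 to 34.2%), 53.0% (51.4 to 54.6%), 80.3% (79.0 to 81.5%) and 96.7% (96.1 to 97.3%). Only in the second bin did the intervals then stay apart from those of chromosome 11. These shares divide up the same NSC sharing that went into the choice of the chromosome and are no separate finding. In ASTs the bins were at 57.3% (51.0 to 63.4%), 71.1% (65.5 to 76.2%), 84.9% (80.2 to 88.9%) and 86.8% (82.6 to 90.3%). The other chromosomes were at 56.5%, 72.0%, 83.3% and 89.4%, each inside the interval of chromosome 11. The strongest AST bin thus stayed well short of the strongest NSC bin in sharing, with 43 AST-only peaks among 325.

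**Figure D4:**
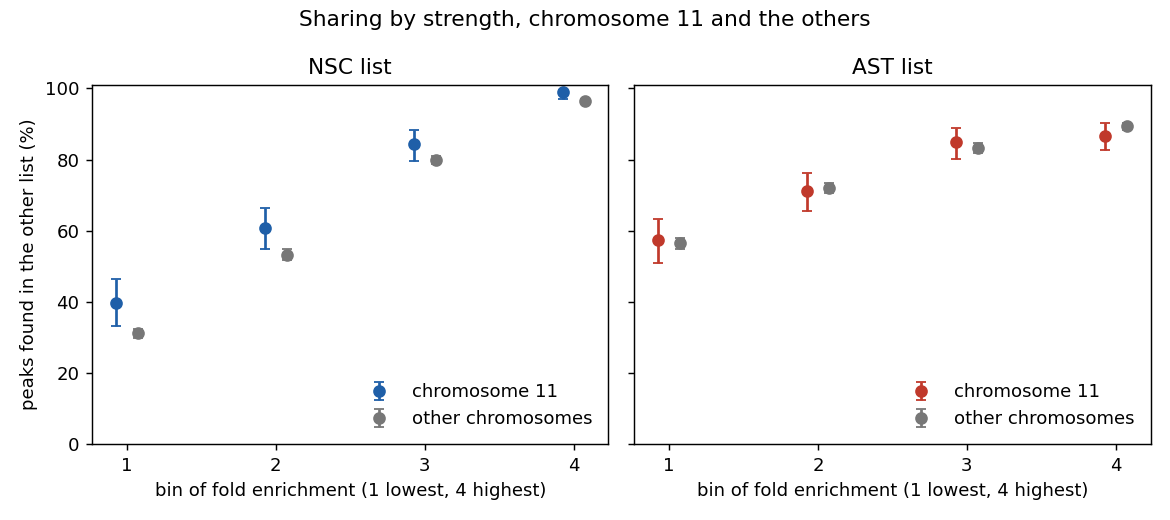
Percentage of peaks found in the other list (vertical axis) by bin of fold enrichment from 1, the weakest, to 4, the strongest (horizontal axis), for the NSC list (left) and the AST list (right), with exact binomial 95% intervals; colour marks chromosome 11 and grey the other chromosomes. NSC sharing climbs from 39.6% to 98.9% on chromosome 11 and lies above the grey points in each bin, a value that went into choosing the chromosome, whereas AST sharing levels off at 86.8% and follows the grey points.

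Strong AST-only peaks were mostly narrow. Of the AST peaks of chromosome 11 with fold enrichment of at least 15, 8 of 33 under 250 bp were AST-only (24.2%, 11.1 to 42.3%), against 2 of 91 of 250 bp or more (2.20%, 0.267 to 7.71%). Both of these wider AST-only peaks lie in 1 run between 104322993 and 104451704, described below. The other chromosomes had the same order, with 31.7% of 369 narrow and 0.610% of 984 wider peaks. In NSCs 0 of 23 strong narrow peaks were NSC-only (interval 0 to 14.8%) and 2 of 242 wider ones were (0.826%, 0.1002 to 2.95%). The limits of 15 and 250 bp were taken with the values known.

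At shared sites the lists placed cohesin at nearly the same base. The 880 shared NSC peaks were each paired with the AST peak they overlapped most, which involved 879 AST peaks. The median distance between summits was 18 bp (quartiles 8 and 33), and 791 pairs (89.9%) had summits within 50 bp. The median overlap was 199.5 bp. The NSC peak was the wider in 642 pairs (73.0%), the AST peak in 231, and widths were equal in 7, with medians of 266.5 and 216 bp. Whether this difference in width comes from the libraries was not tested.

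The rank of strength was only partly shared. Across the 880 pairs the Spearman correlation was 0.573 for fold enrichment and 0.540 for width, a description across sites that are not independent replicates. Above the upper quartile of the pairs were 217 sites by NSC strength (over 15.84) and 208 by AST strength (over 12.17). In both were 121 sites, or 55.8% of the first and 58.2% of the second.

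**Figure D5:**
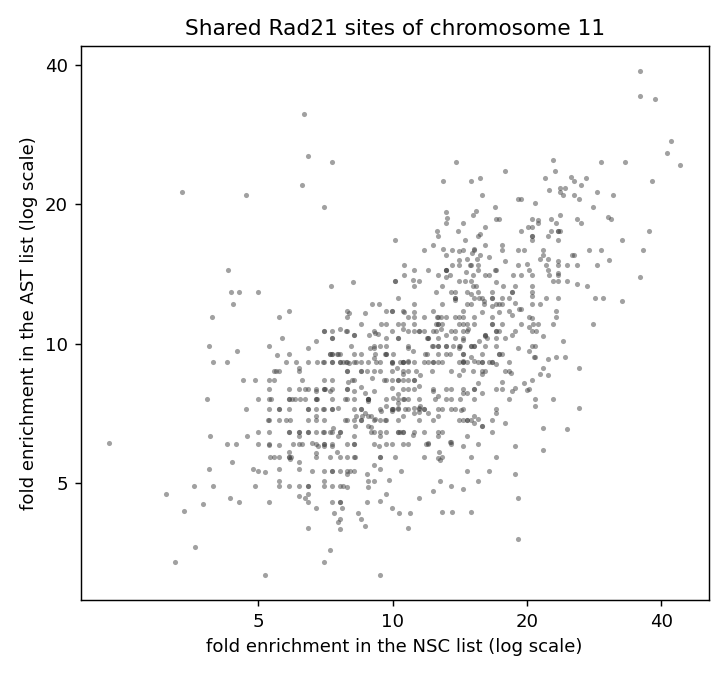
Fold enrichment in the NSC list (horizontal axis, log scale) against that in the AST list (vertical axis, log scale) for the 880 shared pairs of chromosome 11, 1 dot per pair. Dots form a broad rising cloud (Spearman correlation 0.573), with scattered sites that are high in 1 list and low in the other.

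Some sites stood high in 1 list and low in the other, judged by their place among the shared sites of each list, with each AST peak counted once (879 sites). Of the 217 sites above the upper quartile in NSCs, 38 (17.5%) lay below the median of the shared sites in ASTs (9.13). Their NSC peaks had a median width of 297 bp, against 354 bp over the 217, and 7 of them were under 250 bp. Of the 220 sites above the upper quartile in ASTs, 25 (11.4%) lay below the median in NSCs (11.44). Their AST peaks had a median width of 234 bp, against 286.5 bp over the 220, and 18 of the 25 were under 250 bp, against 73 of the 220. The summits at these 25 sites were a median of 7 bp apart. Places in the order were used because fold enrichment depends on each library, and these limits were set after the values had been seen.

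The 5 strongest NSC sites of chromosome 11 were strong in both cell types. The top NSC peak, at 101830057 to 101830476, had a fold enrichment of 44.0 with 150 fragments at its summit, ninth in the whole NSC list, and its AST partner had 24.33 with 64 fragments. It was followed by 105453221 to 105453663 (41.95 in NSCs, 27.38 in ASTs) and 113565105 to 113565495 (41.07 and 25.86). The site at 90031258 to 90031684 had 38.72 and 33.84, and that at 113672430 to 113672890 had 38.14 and 22.43. All of the 5 were found in ASTs, and the sites at 90031258 and 105453221 were also among the 5 strongest of the AST list.

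The top AST peak lay at 81809649 to 81810167, with a fold enrichment of 38.78 and 102 fragments, 15th in the whole AST list, and an NSC partner at 35.79 with 122 fragments. The second, at 11873333 to 11873842, had 34.22 and an NSC value of 35.79 as well, and it lies in one of the sparsest steps of the chromosome. A further site among the top 5 stood apart from these. At 78011459 to 78011692 the AST peak had a fold enrichment of 31.34 and 83 fragments at its summit but was only 234 bp wide, and its NSC partner, 213 bp wide, had a fold enrichment of 6.33 and 34 fragments. It is 1 of the 25 sites that stood high in ASTs and low in NSCs.

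The widest peaks were not always wide in both lists. In NSCs they were 20694188 to 20694992 (805 bp), 103019861 to 103020622 (762 bp) and 56865105 to 56865786 (682 bp), and the AST peaks paired with them measured 353, 257 and 474 bp. The widest AST peak, at 4158533 to 4159243, measured 711 bp and its NSC partner 633 bp. It was followed by the top AST peak (519 bp) and by 11720189 to 11720700 (512 bp), whose NSC partner measured 482 bp.

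NSC-only sites stayed below the strongest shared ones. The top 5 were 109192734 to 109193040 (fold enrichment 17.31, 59 fragments), 3953669 to 3953919 (15.55, 53 fragments), 70329944 to 70330270 (14.24, 51 fragments), 111765495 to 111765738 (13.49, 46 fragments) and 103186606 to 103186819 (13.18, 53 fragments). The nearest AST summit was 12.96 kb from the first and only 1.70 kb from the fifth, but 251.2 kb from the site at 111765495. The top AST-only site, at 104382736 to 104382990, reached 27.0 with 71 fragments in a peak of 255 bp. The others were 75864893 to 75865123 (23.19, 231 bp), 69597806 to 69598029 (20.53, 224 bp), 104389518 to 104389875 (20.15, 358 bp) and 20352156 to 20352381 (19.77, 226 bp).

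The AST-only sites at 104382736 and 104389518 belong to 1 run, noticed in the data. Between 104322993 and 104451704, a span of 129 kb, the AST list had 14 peaks, 11 of them AST-only with a median fold enrichment of 11.79 (range 3.62 to 27.0), and the NSC list had 3, all of them shared. The run held 11 of the 25 AST-only peaks of the step at 100 to 105 Mb. It also held the tightest group of 5 AST peaks on the chromosome, at 104376720 to 104384221, within 7.50 kb, where no NSC peak was called. The tightest 5 NSC peaks, at 98636118 to 98650395, spanned 14.3 kb, had fold enrichments of 4.99 to 12.32 and included 2 shared peaks. The median background was 1.12 times the usual under the tightest 5 AST peaks, over the limit of 1.1 used above. Under the tightest 5 NSC peaks it was 1.00 times the usual.

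The sites of chromosome 11 were closer together than those elsewhere. The median distance between adjacent peak starts was 48.3 kb (44.1 to 52.6) in NSCs, against 59.9 kb on the other chromosomes, and 50.5 kb (45.6 to 55.6) in ASTs, against 69.7 kb. This follows from the density by which the chromosome was chosen. Close neighbours were only slightly more frequent, with 17.0% (14.9 to 19.2%) of NSC distances and 15.6% (13.5 to 17.8%) of AST distances under 10 kb, against 15.7% and 13.2%. Median distance was 85.2 kb before 50 Mb and 43.9 kb from there on in NSCs, and 78.3 and 45.3 kb in ASTs.

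Long stretches without cohesin sites lay mostly in the sparse part. In 11 stretches of at least 1 Mb, 16.7 Mb in all, neither list had a peak, and 9 of them lay before 50 Mb. The longest ran from 36340169 to 38561079 (2221 kb), within the sparsest step. The second, from 90559496 to 92751532 (2192 kb), broke the dense part between the steps at 85 to 90 and 95 to 100 Mb, and the third ran from 9381783 to 11031673 (1650 kb). Whether a stretch without peaks could be aligned to was not tested.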

How the data were processed

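Rad21 ChIP-seq libraries, 1 per cell type with 1 input each, were grouped by their sample labels. Reads were mapped to genome build mm9, for which Bowtie 1.0.0 and MACS2 2.0.9 are the tools listed in the submitters' processing notes. Their settings were not stated in the texts read. The authors deposited 1 peak list per cell type, with start, end and summit as positions, which are printed counting from 1. Fold enrichment, as deposited, is the ratio of summit pile-up to local background, and the deposited p and q are −log10 values. The lowest −log10 q was 1.02 in NSCs and 1.03 in ASTs.

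Peaks of chromosome 11 were taken from both lists, and those starting at 3.0 to 3.1 Mb were kept apart. Background and fragments at the summit were recovered by reading the deposited p as a Poisson tail, with 1 scale factor per list, which gave back −log10 p within 0.05 for all chromosome 11 peaks. The usual background is the median of those peaks whose fold enrichment exceeds 8. Shares have Clopper-Pearson 95% intervals and medians have order-statistic intervals. No test was made between cell types, and correlations over steps or sites carry no p-value. Peaks were assigned to a step by their start. The call of overlap by 1 bp or more and the recovery of background were tested on simulated lists first. The other computations were not.

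The members, steps and lists were chosen with earlier results of these data known. Named regions are, in each list, the 3 densest and sparsest steps, the 3 most and least shared steps of at least 20 peaks, the 5 strongest peaks, the 5 strongest cell-type-only peaks, the 3 widest peaks and the tightest 5, and the 3 longest stretches without a peak. Others are said in the text to have been picked after their values were seen. Protein-coding genes per chromosome were counted in RefSeq for GRCm38.p6, with no coordinate of that build used. Sequences, motifs and gene features of the named sites, planned for a genome of mm9, were not analysed here. The alternatives tried were limits of 5 and 10 on −log10 q, lists of equal length by −log10 p, the segment at 3.0 to 3.1 Mb kept in, a reciprocal overlap of 0.5, a summit distance of up to 200 bp, a gap of up to 1 kb, steps of 2 or 10 Mb or moved by 2.5 Mb, peaks under 1 kb apart merged, and bin borders from chromosome 11 alone. Scripts ran under Python 3.11.15 with scipy 1.17.1, numpy 2.4.6, matplotlib 3.10.9 and pandas 2.3.3.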

Additional observations from a re-analysis of the deposited data

How the results depend on the processing

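Of 68 values recomputed under another setting, 49 stayed within the 95% interval of the reported value (a count or correlation, within 1.5 times) and 19 did not. At −log10 q of at least 10 the AST list kept 662 peaks on chromosome 11, against 823 in the NSC list. The NSC shared share was then 63.1% (other chromosomes 56.5%), the AST share 78.7% (79.5%, so chromosome 11 stood below the others), and NSC-only peaks were 68.3% of the cell-type-only peaks (74.9%). Median width and fold enrichment were 278 bp (274) and 12.32 (11.61) in NSCs, and 233.5 bp (232) and 10.71 (10.65) in ASTs, where little of the difference was left. At −log10 q of at least 5 they were 252 bp (249) and 10.27 (9.68) in NSCs, and 217 bp (215) and 9.13 (8.70) in ASTs. With lists of equal length the NSC share was 78.5% (71.6%), the NSC-only share 43.1% (50.7%), and NSC width and fold enrichment were 248 bp (245) and 10.13 (9.53). With reciprocal overlap of 0.5 the shares were 69.98% (59.5%) in NSCs and 71.3% (68.4%) in ASTs. With bin borders from chromosome 11 alone, the third NSC bin was 90.8% shared. The NSC-only share of cell-type-only peaks thus lay on either side of an equal split, but below the other chromosomes in each of these settings. This share is one of the values that chose the chromosome, so nothing is read from its place below the others. Without the AST-only run between 104322993 and 104451704, left out after the data had been seen, it was 53.0%, and with the segment at 3.0 to 3.1 Mb kept in it was 51.1%. The Spearman correlation of the densities was 0.935 with steps of 2 Mb, 0.945 with steps of 10 Mb and 0.974 with steps moved by 2.5 Mb. How far the densest step stood above the median step depended on step size. The ratio was 1.98 in NSCs and 2.16 in ASTs with steps of 5 Mb. With steps of 10 Mb it was 1.35 and 1.47, and with steps of 2 Mb 2.89 and 2.56. No paired analysis was possible because no result comes from a test and each cell type has 1 Rad21 library. A site missing from a list was not called at its depth, which need not mean that it was unbound.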
